A study of Mus musculus with 6 samples.

Results

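Glycogen is the liver's store of glucose, and the genes described here encode its synthesis and breakdown enzymes and the proteins that switch them. They are 9 gene rows of the count files, named by symbol: Gyg, Ugp2, Pgm2, Gys2 and Gbe1 on the synthesis side, the phosphatase-targeting subunits Ppp1r3b and Ppp1r3c, and Pygl and Phka2 on the breakdown side. All 9 were present among 22609 gene rows, and all 9 passed the filter on low counts that left 12301 genes for testing. The rows come from 6 RNA-seq libraries of primary hepatocytes, which are liver parenchymal cells in culture after isolation, from male wild-type C57BL/6 mice aged 4 months. A control group of 3 libraries received PBS for 16 hours and the other group of 3 received the secreted glycoprotein LRG1 at 20 µg/mL for the same time. The question, going by the series title, is how a protein linked there to hepatosteatosis and insulin resistance acts on hepatocyte transcripts. The labels do not say whether replicates are separate animals or separate dishes. The p-values therefore reflect the spread among the 6 libraries alone, and part of it may be technical.

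As background, glucose enters the pathway as glucose 6-phosphate, which phosphoglucomutase turns into glucose 1-phosphate and Ugp2 into UDP-glucose. Glycogenin (Gyg) primes a particle, glycogen synthase (Gys2 in liver, Gys1 in muscle and most other tissues) extends its chains, and Gbe1 adds the branches. Glycogen phosphorylase (Pygl in liver, Pygb in brain) removes glucose units. Phosphorylase kinase, whose liver regulatory subunit is Phka2, activates phosphorylase, while protein phosphatase 1, brought to glycogen by Ppp1r3b, Ppp1r3c and their relatives, activates the synthase. Insulin favours storage and glucagon favours release.

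Gene counts summed to 18625748 to 23036332 per library, and CPM below stands for counts scaled to a common total over the tested genes, with TMM factors. The liver label held for albumin (Alb), at 19235 ± 676 CPM with PBS and 18555 ± 375 CPM with LRG1 (SD, n = 3 each). Of 8 hepatocyte markers, 5 were lower with LRG1 (among them Apoa1, Tat, Hnf4a and Cps1) and the other 3 did not pass the test described below. Their summed level was 20607 to 21996 CPM in PBS libraries and 19982 to 20856 CPM in LRG1 libraries. Summed markers of stellate cells and fibroblasts came to 25.2 to 31.7 CPM with PBS and 23.4 to 26.6 CPM with LRG1, with 1 of 6 tested members lower. Kupffer cell and macrophage markers came to 220.2 to 264 CPM and 178 to 204 CPM, most of it Cd68, with 2 of 6 lower. Endothelial markers came to 38.4 to 40.8 CPM and 31.9 to 36.4 CPM, with 2 of 5 lower. Cholangiocyte markers came to 4446 to 4630 CPM and 4325 to 4643 CPM, nearly all of it Spp1, with Sox9 higher and Krt19 lower of 3 tested. Skeletal muscle markers, which matter here because muscle has its own glycogen isoforms, came to 47.8 to 50.6 CPM and 60.7 to 76.4 CPM, nearly all of it Acta1, which was higher with LRG1, while Myh4 and Tnnt3 had no count. Of the erythroid markers Hba-a1 and Hbb-b1 had no count and nearly all reads were those of Alas2, and of the lymphocyte markers Cd3e and Nkg7 had none. Beside these marker counts, 25.8% of all tested genes were called lower and 25.5% higher. Whether shifts in other cell types had a part in the results that follow was not tested. In such bulk libraries, fewer cells of a type and less RNA per cell cannot be told apart.

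Of the 9 glycogen genes, 8 fell with LRG1 and Gyg did not pass the threshold, which was an adjusted p of 0.05 in edgeR's quasi-likelihood test with p-values adjusted by Benjamini-Hochberg across all tested genes. Of all tested genes, 25.8% were called lower and 25.5% higher. None of the 9 was called higher, by edgeR, DESeq2 or limma-voom, or at an unadjusted p under 0.05 in edgeR (0 genes in each). In the 8 that fell, every LRG1 library lay below every PBS library, which was so for 28.6% of tested genes. The opposite arrangement, all LRG1 libraries above all PBS libraries, was found for 0 of the 9 and 29% of tested genes. The median log2 fold change of the 9 was -0.56, against 0.0093 for all tested genes. Because the 9 were chosen with earlier results of these data known, these comparisons with all tested genes describe the set and do not test it. Gys2, Ppp1r3c and Gbe1, 3 genes, were at least 2-fold lower, as were 5.43% of tested genes. With Ugp2 the number at least 1.5-fold lower was 4, against 10.6% of tested genes.

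**Figure D1:**
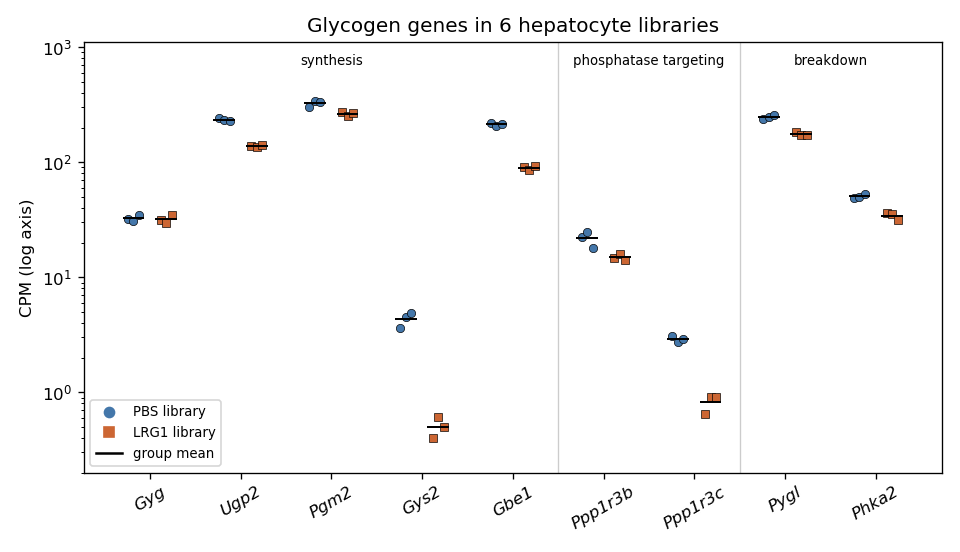
CPM (log axis) of the 9 glycogen genes in each of the 3 PBS libraries (circles) and 3 LRG1 libraries (squares), with group means as black bars, ordered by role. The groups are apart for every gene but Gyg, and the widest gap is that of Gys2, from a mean of 4.35 to 0.502 CPM.

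Gys2, the liver glycogen synthase that lengthens the chains, had the lowest ratio of the 9. It was scarce already in the control cells, with 72, 83 and 93 reads in PBS replicates 1 to 3, or 3.64, 4.47 and 4.94 CPM. The LRG1 replicates held 8, 14 and 10 reads, or 0.398, 0.605 and 0.504 CPM. Every LRG1 library thus held less than any PBS library by a wide margin, although the LRG1 values rest on 32 reads in all. The fitted difference was an 8.48-fold fall (log2 fold change -3.08, SE 0.24, 95% interval -3.58 to -2.59, adjusted p = 1.36e-10). Only 0.171% of tested genes had a lower log2 fold change.

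Gbe1, the branching enzyme, was abundant and fell by more than 2-fold. Its level was 218, 206 and 215 CPM with PBS and 91.6, 85.5 and 91.9 CPM with LRG1, so the groups were far apart and the replicates close together. The difference was 2.38-fold (log2 fold change -1.25, SE 0.043, adjusted p = 3.5e-17), and 3.68% of tested genes had a lower log2 fold change.

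Ugp2, which makes the UDP-glucose that glycogen synthase consumes, held 240.1, 234 and 229.5 CPM in the PBS libraries and 137, 135 and 139.7 CPM in the LRG1 libraries. Both groups were tight and did not overlap. The log2 fold change was -0.77 (SE 0.039, adjusted p = 4.4e-14), a 1.71-fold fall. In the GENCODE M21 annotation 78 bases of its exons lie opposite a non-coding transcript, Gm12043, and the strand setting of the authors' counting is not given in the sources used here.

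Gyg, glycogenin, the protein primer on which a new particle starts, was the exception. PBS libraries held 32.0, 30.6 and 34.7 CPM and LRG1 libraries 31.6, 29.6 and 34.7 CPM, so the groups overlapped. The log2 fold change was -0.02, with a 95% interval of -0.17 to 0.12 (adjusted p = 0.812). A change of either sign within that interval was not detectable here.

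The row named Pgm2 is one of a pair of phosphoglucomutase rows whose names need care. The RefSeq table of GRCm38.p6 gives Pgm2 as a former name of Pgm1, a gene of chromosome 4, and Pgm1 as a former name of Pgm2, a gene of chromosome 5. The files use other retired symbols (Emr1, with no row for Adgre1), so the Pgm2 row may hold the gene that is now called Pgm1, and which gene each row holds cannot be settled from the files. Under the files' own names, Pgm2 had 303, 337 and 335 CPM with PBS and 272, 254 and 266 CPM with LRG1. The groups did not overlap, but the fall was the smallest of the 8, at 1.23-fold (log2 fold change -0.30, SE 0.044, adjusted p = 3.43e-06). The Pgm1 row went the other way, from 40.0 ± 5.03 to 77.0 ± 2.65 CPM, a 1.93-fold rise (log2 fold change 0.95, SE 0.065, adjusted p = 1.33e-11). With LRG1 the 2 rows moved in opposite directions, so the direction of either gene is not settled by these rows. The Pgm2 row was placed on the synthesis side, and counted among the 8 that fell, by its symbol alone. In GENCODE M21 the gene of chromosome 4 shares 398 exonic bases with Itgb3bp, a protein-coding gene of the opposite strand, so the level of whichever row holds that gene is uncertain to that extent.

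The subunits that bring protein phosphatase 1 to glycogen both fell. Ppp1r3c, also called PTG, had 3.09, 2.75 and 2.92 CPM with PBS, from 61, 51 and 55 reads. With LRG1 it had 0.647, 0.907 and 0.907 CPM, from 13, 21 and 18 reads. The groups were well separated at this low level, and the fall was 3.53-fold (log2 fold change -1.82, SE 0.23, adjusted p = 3.36e-07). Ppp1r3b, or GL, the targeting subunit best known in liver, had 22.4, 24.8 and 17.9 CPM with PBS and 14.8, 15.9 and 14.3 CPM with LRG1. PBS replicate 3 was the lowest control and still lay above all LRG1 libraries. The fall of Ppp1r3b was 1.45-fold (log2 fold change -0.53, SE 0.098, adjusted p = 7.43e-05).

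On the breakdown side, Pygl, the liver phosphorylase, had 236, 246 and 258 CPM with PBS and 183, 172 and 174 CPM with LRG1. These groups did not overlap, and the fall was 1.40-fold (log2 fold change -0.49, SE 0.042, adjusted p = 8.39e-10). Phka2, the liver regulatory subunit of phosphorylase kinase, had 49.1, 49.9 and 53.0 CPM with PBS and 35.9, 35.7 and 31.2 CPM with LRG1. All LRG1 values were again the lower ones, by 1.48-fold (log2 fold change -0.56, SE 0.062, adjusted p = 4.74e-08). An annotated antisense transcript, Gm15243, covers 115 bases of the Phka2 exons.

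The RefSeq table held promoter windows for 6 of the 8 members whose symbol is unambiguous, Gyg, Ugp2 (with 2 start sites), Pygl, Gbe1, Ppp1r3c and Phka2, and none was found for Gys2 and Ppp1r3b. Because most members fell together, the bases before the start are shown for the 3 members with the largest falls that have a window, namely Ppp1r3c, Gbe1 and Ugp2 (the second start). They are RefSeq sequences, 5′ to 3′ on the gene's strand, ending at the start site or, for Ppp1r3c, where the exons of GENCODE M21 begin. Capitals mark CAGAC, the core that SMAD proteins bind, and ACGTG, the core that hypoxia-inducible factors bind, on either strand.
Ppp1r3c (GRCm38.p6, chr19:36736654-36736854, minus strand): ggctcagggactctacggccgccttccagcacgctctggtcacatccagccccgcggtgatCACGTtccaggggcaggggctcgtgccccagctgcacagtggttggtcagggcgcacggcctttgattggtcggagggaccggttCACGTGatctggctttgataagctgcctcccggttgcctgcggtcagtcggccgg
Gbe1 (GRCm38.p6, chr16:70313699-70313948, plus strand): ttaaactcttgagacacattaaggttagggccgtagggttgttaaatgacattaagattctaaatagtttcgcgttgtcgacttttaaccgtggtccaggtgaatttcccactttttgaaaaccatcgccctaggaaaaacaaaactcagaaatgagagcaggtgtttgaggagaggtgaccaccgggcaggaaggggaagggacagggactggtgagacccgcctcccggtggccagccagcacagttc
Ugp2 (GRCm38.p6, chr11:21370630-21370879, minus strand): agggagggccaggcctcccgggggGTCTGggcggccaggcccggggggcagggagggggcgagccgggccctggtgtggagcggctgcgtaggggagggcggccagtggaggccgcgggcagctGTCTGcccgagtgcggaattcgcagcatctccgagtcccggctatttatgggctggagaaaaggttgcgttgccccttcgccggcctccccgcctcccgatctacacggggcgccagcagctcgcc
In the 250 bases before the start, ACGTG was found in 3 of 7 member windows, those of Pygl, Ppp1r3c and the first start of Ugp2, and in 16.6% of the 32851 windows in the table. The Ppp1r3c window held it at 3 places, of which 2 are the overlapping readings of a single CACGTG, a palindrome present in 6.02% of all windows. CAGAC was found in 2 of 7, both of Ugp2, against 42.2% of all windows. The cAMP response half-site TGACG was found in 1 of 7, that of Pygl, against 17.8%. GTAAACA, the core read by FOXO and FOXA factors, and TATAAA were found in none of the 7, against 3.17% and 12.4%. These are matches of letters, counted on both strands, and say nothing of whether a factor is bound.

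Levels of different genes were compared per kilobase of exon, with exon lengths from the protein-coding transcripts of GENCODE M21 (GRCm38), which may differ from the annotation the authors counted on. The Pgm2 row was left out of this comparison because of its name. In PBS libraries the order of levels was Ugp2 (81.7 ± 1.86 CPM per kilobase), Pygl (73.8 ± 3.39), Gbe1 (49.9, with libraries at 48.2 to 51.1), Gyg (16.9 ± 1.07), Phka2 (10.04 ± 0.406), Ppp1r3b (4.78 ± 0.770), Gys2 (1.64 ± 0.246) and Ppp1r3c (1.07 ± 0.0621). No neighbours in that order overlapped between libraries. The messages for making UDP-glucose, branching and phosphorolysis were thus far more abundant per length than that of the synthase itself. In LRG1 libraries Pygl (52.6 ± 1.77) stood above Ugp2 (47.8 ± 0.883), and Ppp1r3c (0.301 ± 0.0550) above Gys2 (0.189 ± 0.0388). The order of Ppp1r3c and Gys2 rests on 52 and 32 reads. Their ranges, 0.238 to 0.333 and 0.150 to 0.228, nearly touched. Gbe1, at 21.0 ± 0.844 CPM per kilobase, had come close to Gyg at 16.6 ± 1.34, though their ranges of 20.0 to 21.5 and 15.4 to 18.1 stayed apart.

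**Figure D2:**
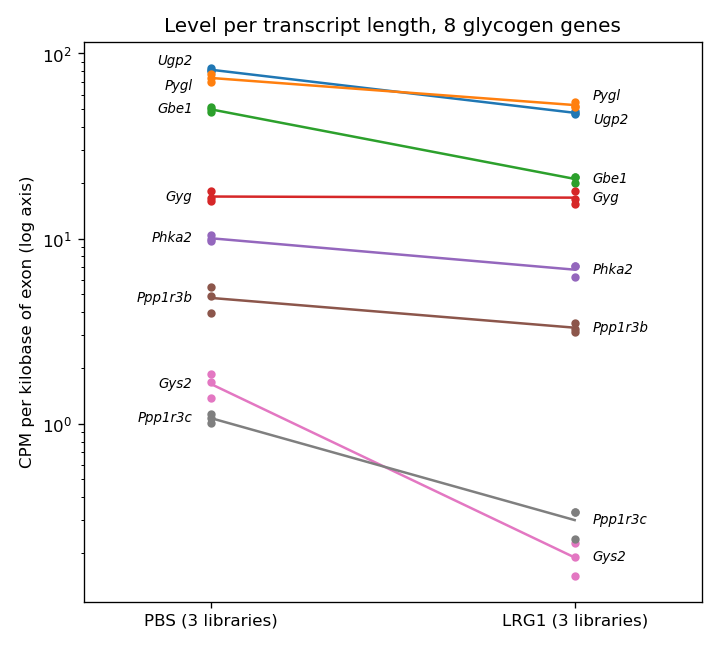
CPM per kilobase of exon (log axis) of 8 glycogen genes in PBS and LRG1 libraries; points are libraries and lines join the group means. Lines cross for Ugp2 with Pygl and for Gys2 with Ppp1r3c, and the Gyg line is level, from 16.9 to 16.6.

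Liver isoforms were then set against their counterparts from other tissues by the log2 ratio of counts within each library, which does not depend on library size. Over 6 pairs of genes an exact two-sided permutation test over the samples gave p = 0.1 each and an adjusted p of 0.1, the smallest that 3 against 3 allows, so none of these could pass 0.05. The values of 5 pairs are given here. The Gys2 to Gys1 ratio was -1.60, -1.71 and -1.11 with PBS and -4.94, -4.34 and -4.63 with LRG1, a shift of -3.17 without overlap. Gys1 itself had 12.2 ± 2.18 and 12.9 ± 0.191 CPM (log2 fold change 0.09, 95% interval -0.13 to 0.31, adjusted p = 0.516). Per kilobase Gys1 stood above Gys2 already with PBS, at 3.30 ± 0.592 against 1.64 ± 0.246, so the liver-type synthase was the lesser of the pair in these cultures. Gys1 shares 310 exonic bases with Ruvbl2 on the opposite strand, and its level is uncertain to that extent.

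Pygb, the brain phosphorylase, fell as Pygl did. It went from 62.2 ± 2.20 to 40.4 ± 0.938 CPM (log2 fold change -0.62, adjusted p = 5.51e-10), and the Pygl to Pygb log2 ratio was 1.99 ± 0.106 with PBS and 2.12 ± 0.0150 with LRG1, a shift of 0.14. For phosphorylase kinase the Phka2 to Phka1 ratio fell from 1.80 ± 0.245 to 1.08 ± 0.262, a shift of -0.72, with Phka1, the muscle form, at 14.6 ± 2.21 and 16.2 ± 1.88 CPM (adjusted p = 0.23, 95% interval of the log2 fold change -0.06 to 0.37). Ppp1r3b to Ppp1r3c rose from 2.87 ± 0.278 to 4.17 ± 0.268, a shift of 1.29, as Ppp1r3c lost the larger share. Between the arms of the pathway, the Gys2 to Pygl ratio shifted by -2.58, from -5.83 ± 0.159 to -8.40 ± 0.330.

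**Figure D3:**
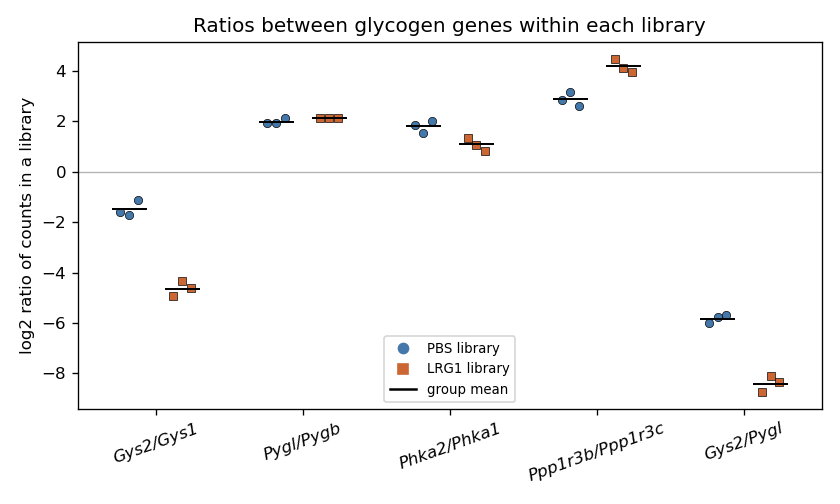
Log2 ratio of counts in each PBS library (circles) and LRG1 library (squares) for 5 pairs of genes, with group means as black bars. PBS and LRG1 libraries do not overlap in any of the 5 pairs, and the widest gap is that of Gys2/Gys1 (shift -3.17). For Pygl/Pygb (shift 0.14) they nearly touch, with PBS replicate 3 at 2.1075 and LRG1 replicate 2 at 2.1115.

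The rest of the pathway, 41 listed genes of which 35 were tested, was mixed. It held 13 genes called lower, 6 called higher and 16 that did not pass, with a median log2 fold change of -0.05. Of all tested genes 25.8% were called lower and 25.5% higher, and the counts of each list below stand beside the same shares. Among the other glycogen enzymes 3 of 6 were lower and 2 higher. Gaa, the lysosomal glucosidase that digests glycogen, fell from 306 ± 11.9 to 252 ± 7.47 CPM (adjusted p = 2.94e-06). Pgm1, above, and Pgm2l1, a glucose 1,6-bisphosphate synthase with a log2 fold change of 0.49, rose.

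Of 6 tested genes for the other phosphorylase kinase subunits and calmodulin, 1 was lower and 2 were higher. Phkb, the beta subunit, fell by a small amount, from 42.5 ± 1.53 to 36.4 ± 1.79 CPM (log2 fold change -0.23, adjusted p = 0.0026). Calm2, one of the genes for the calcium-binding subunit shared with many other enzymes, rose with a log2 fold change of 0.49 (adjusted p = 5.51e-10), and Calm3 had -0.06 (adjusted p = 0.172).

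Of 5 tested genes for protein phosphatase 1 and its other targeting subunits, Ppp1r3e, a further glycogen-targeting subunit, was lower, from 7.10 ± 0.843 to 4.83 ± 0.834 CPM (log2 fold change -0.55, adjusted p = 0.00245). The other 4 did not pass. They include the catalytic subunits Ppp1ca (324 ± 9.85 and 325 ± 4.99 CPM), Ppp1cb (log2 fold change 0.07, 95% interval -0.03 to 0.16) and Ppp1cc (-0.50, -1.02 to 0.02), and Ppp1r3f (0.36, -0.16 to 0.88). In GENCODE M21, Ppp1r3f shares 2415 of 5153 exonic bases with Gm36995, and Ppp1cb 1908 of 10913 with Gm43312, both on the same strand. Ppp1ca shares 225 with Rad9a on the opposite strand, and the levels of these genes are uncertain to that extent. Ppp1r3a, the muscle targeting subunit, had no read in any library.

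Among 9 kinases and regulators 3 were lower and the other 6 did not pass. Stbd1, which tethers glycogen to membranes, was at 138 ± 0.227 CPM with PBS and 100.4 ± 3.32 CPM with LRG1, a log2 fold change of -0.46 (SE 0.041, adjusted p = 1.44e-09). The protein kinase A subunits Prkar2a and Prkaca fell slightly, with log2 fold changes of -0.26 and -0.20, while Prkacb had 0.09 (adjusted p = 0.0992). The glycogen synthase kinases Gsk3a and Gsk3b had log2 fold changes of 0.08 and -0.05 and did not pass (adjusted p = 0.153 and 0.346).

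At the step where glucose enters and leaves, 5 of 9 tested genes were lower and 2 higher. The transporter Slc2a2 fell from 18.9 ± 1.75 to 3.64 ± 0.884 CPM (log2 fold change -2.37), and Gckr, which encodes a regulator of glucose phosphorylation in liver, from 6.18 ± 1.36 to 2.24 ± 0.343 CPM (-1.48). The glucose 6-phosphate carrier Slc37a4 and the phosphatase G6pc had log2 fold changes of -0.78 and -1.05. The G6pc value (SE 0.29) rests on few reads, 32, 44 and 33 with PBS and 28, 20 and 10 with LRG1. Hexokinases 1 and 2, the forms common outside the liver, rose (Hk1 0.61, Hk2 0.79).

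**Figure D4:**
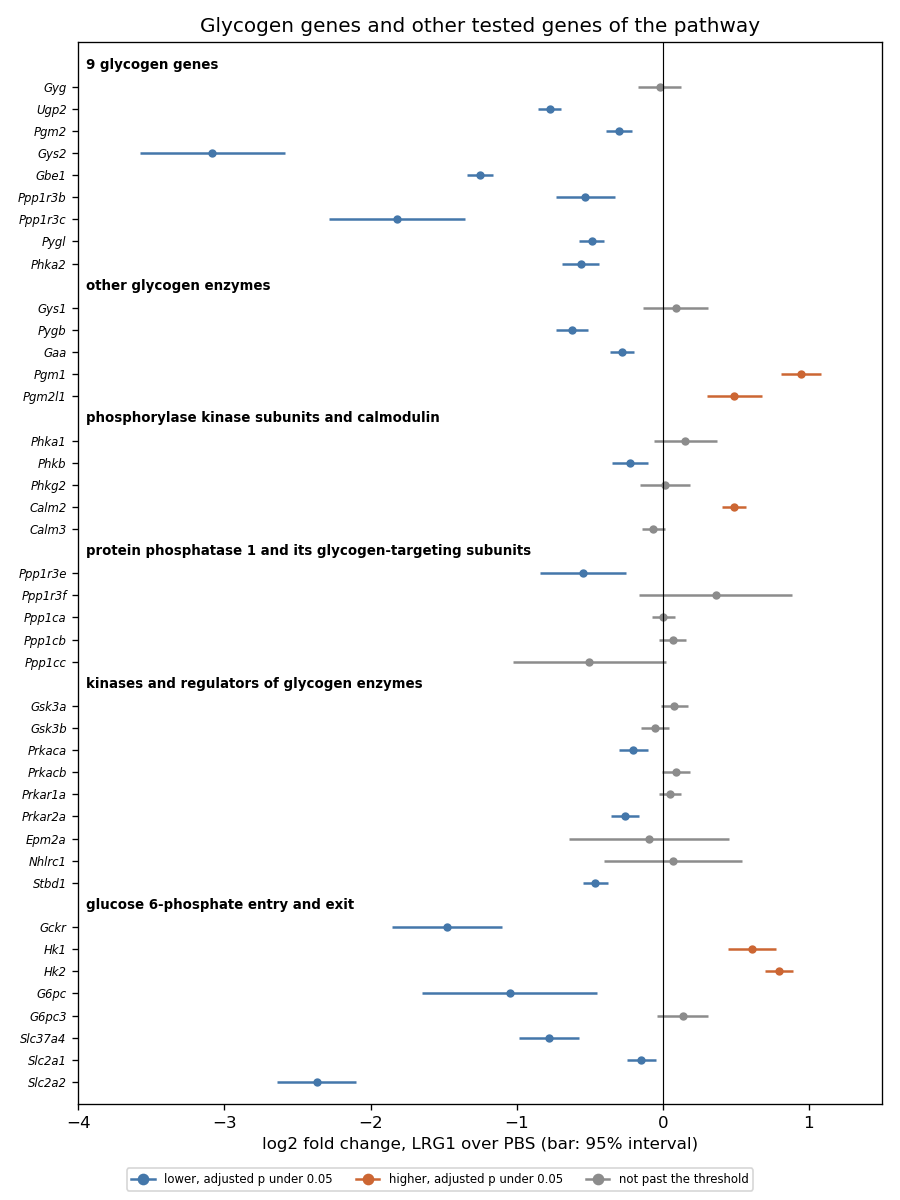
Log2 fold change of LRG1 over PBS with its 95% interval for the 9 glycogen genes and 32 of the 35 other tested genes of the pathway, coloured by call. Of the 9, 8 lie left of 0 past the threshold, while the other groups shown hold 12 lower and 5 higher calls.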

How the data were processed

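The authors deposited raw read counts per gene symbol, 1 file for each of the 6 libraries. Per the submitters' processing notes they used bcl2fastq, TopHat2 and HTSeq with build mm9; for versions, annotation and strand setting, the sources used here give nothing. Per the labels' protocols, about 500 ng of total RNA entered a poly(A)-selecting, strand-marking kit and reads were single-end, 50 nt. The last 5 rows (HTSeq summaries) were left out; reads in no gene were 8.96 to 10.3% of uniquely aligned reads and non-unique alignments 58.2 to 59.3% of all row totals.

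Genes were kept by filterByExpr (minimum count 10) and tested with edgeR 4.0.16 (R 4.3.3): TMM, glmQLFit and glmQLFTest on treatment alone, 3 against 3, adjusted by Benjamini-Hochberg over the 12301 tested genes. SE was derived from the F statistic. Ratios used a pseudocount of 0.5. Alternatives were other scalings and filters, DESeq2 1.42.0, limma-voom (limma 3.58.1), a robust fit, a replicate block and leaving out each library. The code was tested on simulated data. No replicate pair agreed within sampling noise (chi-square per degree of freedom 2.89 to 4.15).

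The members and lists were chosen with earlier results of these data known. Named genes are all 9 members, the 4 genes of smallest p in each pathway list, any called there with an absolute log2 fold change of at least 1, and the genes paired in ratios; Pgm2l1, Hk1, Ppp1r3g, Pygm, Gsk3a, Gsk3b, Ppp1r3a and Ppp1ca were added after their values were seen. A few genes that the rule or the lists hold are not reported here.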

Additional observations from a re-analysis of the deposited data

How the results depend on the processing

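Under all 15 alternatives the counts stood at 8 of the 9 glycogen genes lower and 0 higher, and each of the 8 kept its direction and stayed past the threshold. Their adjusted p reached at most 0.00108, for Ppp1r3b, whose log2 fold change ran from -0.65 to -0.43. That of Gys2 ran from -3.25 to -2.95, of Ppp1r3c from -1.90 to -1.69 and of Gbe1 from -1.27 to -1.22. Gyg, never past the threshold, changed sign when PBS replicate 3 or LRG1 replicate 2 was left out; with a library left out its log2 fold change was between -0.084 and 0.034, and over all alternatives the adjusted p spanned 0.37 to 0.948. Of the other pathway genes 12 to 14 were called lower and 6 to 7 higher. All 6 ratios kept their direction under 8 alternatives each; that of Gys2/Gys1 ran from -3.31 to -2.99. With the replicate block 8 members were lower, and 2984 genes in all were lower and 2906 higher; same-numbered libraries did not deviate together (correlations -0.123 to -0.0142, 0 samples closest to their own number), so the numbers were not taken as pairs. No scaling moved the median of all genes beyond 0.03. Depth limits Gys2 and Ppp1r3c most, with 32 and 52 reads over the LRG1 group.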

Other observations

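The filter on low counts left 6 pathway genes out of the main test, and 2 of them are described here, chosen after their values were seen. Ppp1r3g, a further glycogen-targeting subunit of protein phosphatase 1, had 3, 9 and 7 reads in PBS replicates 1 to 3 and 0, 1 and 0 reads in LRG1 replicates 1 to 3. Pygm, the muscle phosphorylase, had 9, 5 and 5 reads with PBS and 8, 17 and 13 reads with LRG1, so its groups overlapped. In the edgeR fit with no filter on low counts, which tested 16317 genes, Ppp1r3g was called lower (adjusted p = 0.000572) and Pygm did not pass (adjusted p = 0.146). The Ppp1r3g call rests on 1 read in the LRG1 group.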
